A study of Mus musculus with 2 samples.

Results

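Angpt1, Angpt2, Tek, Tie1, Apln, Aplnr, Apela, Adm, Calcrl and Ramp2 encode the core ligands and receptors of 3 vascular signalling systems. These 10 genes were chosen by name for that role, out of 42462 annotated genes measured in the embryonic mouse heart. No measured value entered that rule, but the choice was made with earlier results of these data known. The samples were whole hearts of strain B6NCrl at embryonic day 16.5, pooled from male and female healthy embryos, and they formed 1 group of 2 libraries, replicate 1 and replicate 2. Replicate 2 was a pool of hearts from 41 embryos, while the number of embryos behind replicate 1 was not stated. The labels call the libraries biological replicates 1 and 2, with separate biosample identifiers but the same donor identifier. How much of the spread between them is biological and how much technical cannot be told apart. With 1 group and no second condition, every comparison below is between genes, between transcripts of a gene, or between the 2 pools, and none has a statistical test.

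In the angiopoietin system, the secreted ligand angiopoietin 1 activates the receptor tyrosine kinase TIE2, encoded by Tek, on endothelial cells and supports stable vessels, whereas angiopoietin 2 acts on the same receptor as a weaker, context-dependent ligand. In the apelin system, the peptides apelin and ELABELA (encoded by Apela) share the G protein-coupled receptor APJ, encoded by Aplnr, which is needed for early heart formation and for growth of coronary vessels. In the adrenomedullin system, the peptide adrenomedullin binds the calcitonin receptor-like receptor, encoded by Calcrl, only when that receptor is joined by a receptor activity-modifying protein such as RAMP2, and mouse embryos that lack any of these components die with vascular and cardiac defects.

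Levels are given in TPM, the length-corrected share of transcripts in a library as the authors computed it, in which genes of different length can be compared. Errors are the standard deviation (SD) over both libraries, and the credibility intervals deposited with the values cover counting and assignment error within a library. All 10 genes reached 1 TPM or more in each library, a level reached by 59.1% of 21474 protein-coding genes. Estimated counts per library ran from 58 for Apela in replicate 1 to 5306 for Tie1 in replicate 1, so the lower genes rest on far fewer reads. The summed level of the 10 genes was 382 TPM in replicate 1 and 361 TPM in replicate 2. Because whole hearts were measured, a lower level in a library could come from fewer cells of a type or from less RNA per cell. As TPM is a share, it could also come from more of other RNA in the library, spike-ins included. These sources cannot be told apart.

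**Figure D1:**
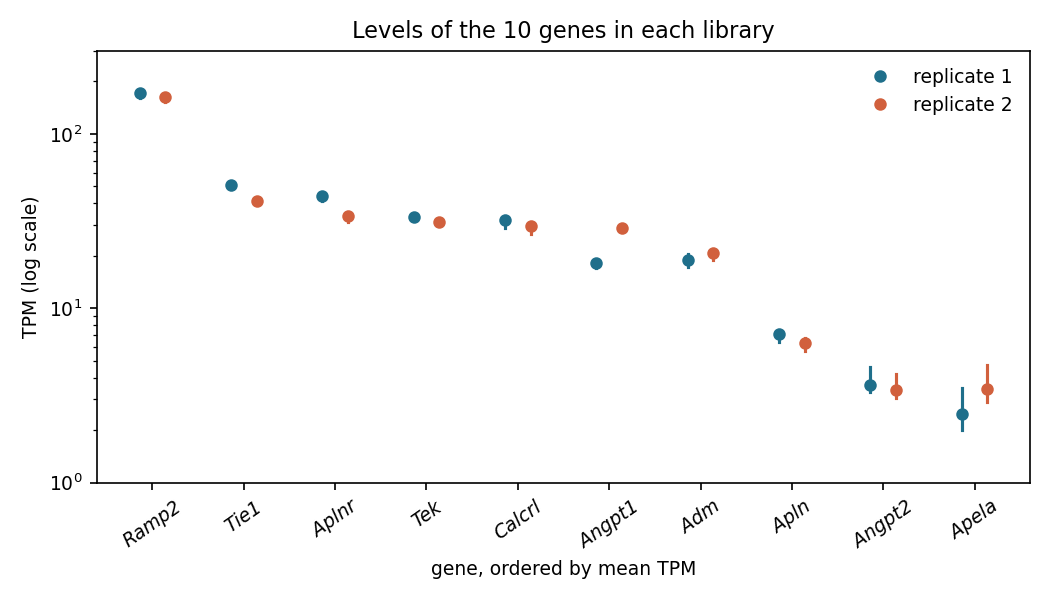
TPM of each of the 10 genes (log scale) in replicate 1 and replicate 2, with vertical bars for the deposited credibility interval of each value. Ramp2 lies far above the other genes in both libraries, the receptor genes lie between 29.7 and 50.8 TPM, and Apln, Angpt2 and Apela are the lowest; Angpt1, Aplnr and Tie1 have intervals that separate between libraries.

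Ordered by mean TPM, the receptor side of the 3 systems stood above the ligand side. Ramp2 came first at 167 ± 6.05 TPM (SD, n = 2), then Tie1, Aplnr, Tek and Calcrl, then the ligand genes Angpt1, Adm, Apln, Angpt2 and Apela. Counted on coding transcripts only, an alternative added after seeing the data, Calcrl fell below Angpt1 in this order, at 20.6 against 23.5 TPM. In this order, 5 of the 9 pairs of neighbours had ranges over the libraries that did not overlap. Ranges overlapped between Tie1 and Aplnr, Tek and Calcrl, Angpt1 and Adm, and Angpt2 and Apela, and in the last pairs, Angpt1 with Adm and Angpt2 with Apela, the order turned between the libraries. Of 21 gene pairs compared within each library, 18 were called different, meaning that both libraries gave the same direction and that the deposited intervals of both genes did not overlap in either library. The 3 pairs not called were Tek with Aplnr, Calcrl with Tek, and Cdh5 with Aplnr.

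**Figure D2:**
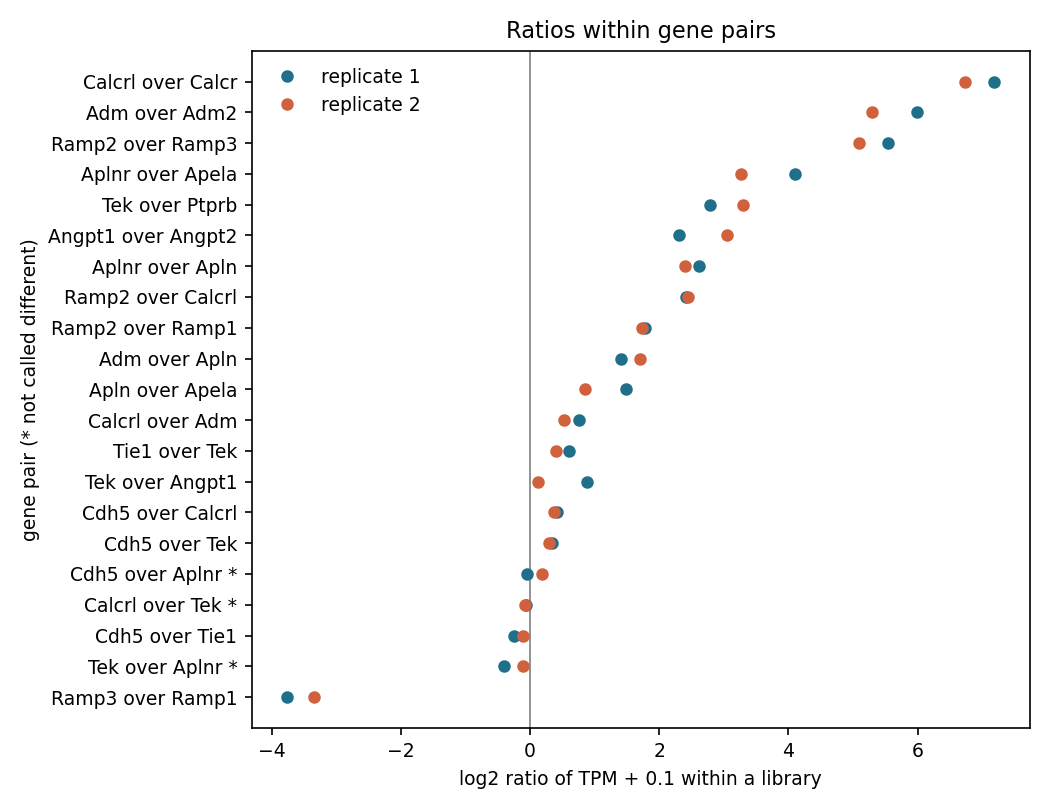
Log2 ratio of TPM + 0.1 for each gene pair within replicate 1 and within replicate 2, ordered by the mean ratio; an asterisk marks the 3 pairs that were not called different. The 2 points of most pairs lie on the same side of 0, from -3.56 for Ramp3 over Ramp1 to 6.96 for Calcrl over Calcr, while Cdh5 over Aplnr falls on both sides.

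Angpt1, the activating ligand of TIE2, is encoded at chr15:42424723-42676977 on the minus strand (build mm10). Its level was 18.2 TPM in replicate 1 and 28.8 TPM in replicate 2, with deposited intervals of 17.1 to 18.6 and 27.3 to 29.2 TPM. The libraries did not overlap, and replicate 2 was 1.58-fold higher (log2 ratio 0.66 on the log2(TPM + 0.1) scale), which made Angpt1 the most variable of the 10 genes. An antisense gene, Gm17473, shares 737 nt of exon with Angpt1 on the opposite strand. It stood at 0.32 and 0.48 TPM, so reads assigned to it were few, and the use of strand in counting is not given in the sources used here.

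Angpt2, the ligand that endothelial cells store and release, lies at chr8:18690263-18741562 on the minus strand, inside the span of the oppositely oriented gene Mcph1. Angpt2 was measured at 3.61 TPM in replicate 1 and 3.39 TPM in replicate 2, and Mcph1 at 8.55 and 7.39 TPM. No exonic base is shared between Angpt2 and Mcph1. Levels of Angpt2 in both libraries were low and close to each other, with overlapping intervals. Angpt1 exceeded Angpt2 by 6.40-fold (log2 ratio 2.68 ± 0.53, n = 2), and the ratio was smaller in replicate 1 than in replicate 2. Of the summed TPM of the 3 angiopoietin ligand genes, Angpt1 made up 83.3 ± 2.68%, Angpt2 13.1 ± 4.30% and Angpt4, a further TIE2 ligand, 3.68 ± 1.61%.

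Tek, which encodes TIE2, lies at chr4:94739289-94874976 on the plus strand and was measured at 33.6 TPM in replicate 1 and 31.3 TPM in replicate 2. Tie1, an orphan receptor that forms complexes with TIE2 and modulates its signalling, lies at chr4:118471191-118490061 on the minus strand and was measured at 50.8 and 41.4 TPM. The intervals of Tek overlapped between libraries, whereas those of Tie1 were apart, with replicate 1 higher. Tie1 was 1.41-fold above Tek (log2 ratio 0.50 ± 0.14, n = 2). Tek was also 1.41-fold above its ligand gene Angpt1 (log2 ratio 0.50 ± 0.54, n = 2), but the SD was as large as the ratio: the log2 ratio was 0.88 in replicate 1 and 0.12 in replicate 2. Ptprb encodes the endothelial phosphatase VE-PTP, which removes phosphate from TIE2, and Tek was 8.24-fold above it (log2 ratio 3.04, and 1.66 in CPM without length correction).

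The isoforms of Tek included one that changes the coding sequence. The transcript Tek-203, which carries the longest reading frame of the pair compared here, held 64.5% of the gene's TPM in replicate 1 and 69.5% in replicate 2. Tek-202, which lacks exon 4 of Tek-203 and is otherwise shared with it over 4501 nt, held 17.7% and 13.8%. That exon is 153 nt long, spans chr4:94799127-94799279 and encodes 51 codons, so its loss keeps the reading frame (3369 against 3216 coding bases). Tek-202 stood at 5.93 TPM (interval 3.22 to 7.85) and 4.30 TPM (interval 2.43 to 6.08), below the intervals of Tek-203 in both libraries. The transcripts also differ by 48 nt that only Tek-202 of the pair carries. Tek-201, a further coding transcript, held 17.0% and 16.7% of TPM. The sequences across exon 4 are shown because its loss changes the coding sequence. They were read 5′ to 3′ from the GENCODE M21 transcripts on the plus strand, from chr4:94798692 to chr4:94804314. Capitals mark the exon that Tek-202 leaves out, and lower case marks 30 bases on either side.
Tek-203 with exon: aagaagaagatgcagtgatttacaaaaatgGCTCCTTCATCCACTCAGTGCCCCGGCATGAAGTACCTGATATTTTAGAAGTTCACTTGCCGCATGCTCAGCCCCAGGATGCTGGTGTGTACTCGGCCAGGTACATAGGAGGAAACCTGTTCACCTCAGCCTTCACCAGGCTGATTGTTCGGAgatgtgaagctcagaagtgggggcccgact
Tek-202 without exon: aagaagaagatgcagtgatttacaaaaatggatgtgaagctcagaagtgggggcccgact

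The other genes fixed for the angiopoietin pathway gave a mixed picture. Of 8 genes measured, 7 reached 1 TPM in each library, and their median level was 4.00 TPM. Klf2, a flow-responsive endothelial transcription factor, stood at 12.7 and 11.8 TPM, and Nos3, the endothelial nitric oxide synthase, at 26.6 and 21.7 TPM. Foxo1, the transcription factor that TIE2 signalling restrains, was measured at 4.07 TPM in each library, and Dok2, an adaptor that docks on TIE2, at 4.61 and 6.79 TPM. Angptl1, a secreted relative of the angiopoietins, stood at 2.52 and 2.99 TPM.

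Apln, the gene of the apelin precursor, lies at chrX:48025146-48034853 on the minus strand and was measured at 7.12 TPM in replicate 1 and 6.31 TPM in replicate 2. Apela, the gene of the ELABELA precursor, lies at chr8:65028417-65037336 on the minus strand and was measured at 2.49 and 3.44 TPM. Apln was higher than Apela in both libraries with intervals apart, by 2.25-fold (log2 ratio 1.17 ± 0.44, n = 2; 2.94 in CPM without length correction). Apela had the fewest reads of the 10 genes, with 58 and 88 estimated counts, and its intervals of 2.00 to 3.49 and 2.90 to 4.75 TPM overlapped. Apln made up 69.4 ± 6.63% of the summed TPM of both peptide genes.

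The coding sequences of both peptide genes are shown because their products share a receptor while their coding ends differ in length. They were read 5′ to 3′ from the GENCODE M21 transcripts, Apela-201 over chr8:65035669-65036965 and Apln-201 over chrX:48028302-48034505, both on the minus strand. Capitals mark the last 32 codons before the stop in Apela-201, which encode the mature ELABELA peptide, and the last 13 codons before the stop in Apln-201, which encode the short apelin form apelin-13. The Apela frame is 165 nt long and the Apln frame 234 nt.
Apela-201 coding sequence: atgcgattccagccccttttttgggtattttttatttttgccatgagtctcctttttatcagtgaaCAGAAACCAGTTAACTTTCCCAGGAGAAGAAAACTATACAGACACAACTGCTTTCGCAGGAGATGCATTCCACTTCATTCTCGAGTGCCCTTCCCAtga
Apln-201 coding sequence: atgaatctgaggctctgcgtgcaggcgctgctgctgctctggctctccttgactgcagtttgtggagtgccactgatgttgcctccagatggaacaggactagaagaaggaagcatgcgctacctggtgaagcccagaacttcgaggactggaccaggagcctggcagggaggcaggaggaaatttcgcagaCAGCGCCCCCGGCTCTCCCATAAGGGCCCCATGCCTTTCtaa

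The deposited row of Apela groups more than the peptide message. It also holds a transcript that the later annotation gives to Trim61, with 5.17% and 3.41% of the row's counts, and, with no counts, one of Gm45886, a noncoding gene that shares 297 nt with Apela on the same strand. Apela-201 carried 97.8% and 98.6% of the row's TPM. Its interval (0.18 to 2.58 TPM in replicate 1) overlapped that of Apela-202, a further coding transcript listed at 0 TPM, so the split between these coding transcripts was not resolved.

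Aplnr, the receptor gene of both peptides, lies at chr2:85136225-85139923 on the plus strand and was measured at 44.2 TPM in replicate 1 and 33.9 TPM in replicate 2. Its intervals, 41.1 to 46.0 and 31.3 to 35.8 TPM, did not overlap, and replicate 1 was 1.31-fold higher. Aplnr exceeded Apln by 5.70-fold (log2 ratio 2.51 ± 0.15, n = 2) and Apela by 12.8-fold (log2 ratio 3.68 ± 0.59, n = 2; 5.60 in CPM without length correction). Its level could not be told from that of Tek: Tek over Aplnr gave a log2 ratio of -0.26 ± 0.20 (n = 2), with Aplnr higher in both libraries but overlapping intervals in replicate 2. In CPM without length correction, where the longer Tek transcripts collect more reads, this ratio turned to 0.15.

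All 6 genes listed around apelin signalling reached 1 TPM in each library, with a median level of 9.49 TPM. Among the G protein and arrestin genes through which APJ signals, Gnai2 stood highest at 349 and 364 TPM (replicate 1, replicate 2), Gnaq stood at 14.9 and 16.3 TPM, Arrb1 at 5.66 and 3.91 TPM, and Arrb2 at 7.89 and 9.36 TPM. Of the enzymes that process or degrade the peptides, Furin, a protease that cleaves precursors, stood at 11.9 and 8.79 TPM and Mme, which encodes the peptidase neprilysin, at 2.51 and 2.46 TPM.

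Adm, the adrenomedullin gene, lies at chr7:110627661-110629820 on the plus strand and was measured at 19.0 TPM in replicate 1 and 20.7 TPM in replicate 2. The libraries overlapped in their intervals (17.2 to 20.4 and 18.9 to 21.9 TPM). Adm was the more abundant of the peptide genes across systems, 2.93-fold above Apln (log2 ratio 1.55 ± 0.21, n = 2), although in CPM without length correction the log2 ratio was only 0.27. Adm2, the gene of the related peptide intermedin, stood at only 0.20 and 0.43 TPM, and Adm made up 98.5 ± 0.706% of the summed TPM of Adm and Adm2. The antisense gene Gm28863 spans Adm, shares no exonic base with it and held 0 counts in replicate 1 and 1 in replicate 2.

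Adm is a known target of the hypoxia-inducible factors, whose core motif is ACGTG or GCGTG. The 250 bases before the RefSeq start site of Adm (GRCm38.p6, chr7:110627407-110627656, plus strand) are shown because Adm was the only one of 6 genes found in the RefSeq promoter table to hold this motif when both strands were searched. Capitals mark the matches, which read CACGC on the plus strand and so GCGTG on the minus strand, and which start 90 and 54 bases before the start site.
Adm upstream region: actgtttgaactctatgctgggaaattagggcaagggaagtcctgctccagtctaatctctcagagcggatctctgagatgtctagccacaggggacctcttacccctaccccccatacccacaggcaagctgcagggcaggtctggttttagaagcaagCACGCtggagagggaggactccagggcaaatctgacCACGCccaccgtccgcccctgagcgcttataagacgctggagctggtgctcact
Such a match is frequent: 38.6% of 32851 promoter sequences held at least 1 and 16.7% held 2 or more, so its presence describes the sequence only. In the latter share a single CACGTG counts as 2, since it reads ACGTG on both strands, whereas the matches of Adm are separate. The promoters of Calcrl, Tek, Tie1, Apela and Apln held none in this window. Of 12 hypoxia-response genes in a fixed list, all 12 reached 1 TPM in each library, with a median level of 25.4 TPM and a median log2 ratio between pools of -0.10. The genes of highest level in that list were Bnip3 at 216 and 205 TPM, Slc2a1 at 125 and 110 TPM, and Pdk1 at 92.9 and 92.7 TPM.

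Calcrl, the receptor gene, lies at chr2:84330626-84425411 on the minus strand and was measured at 32.01 TPM in replicate 1 and 29.7 TPM in replicate 2, with overlapping intervals. Ramp2, the co-receptor gene, lies at chr11:101246028-101259546 on the plus strand and was measured at 171 and 162 TPM, also with overlapping intervals. Ramp2 exceeded Calcrl by 5.39-fold, and of the 21 pairs this ratio was among the closest between libraries (log2 ratio 2.43 ± 0.02, n = 2). In CPM without length correction that log2 ratio was 0.54, as Calcrl transcripts are the longer ones. Calcrl was 1.55-fold above its ligand gene Adm (log2 ratio 0.64, and 1.83 without length correction). Calcr, which encodes the calcitonin receptor, another RAMP partner, stood at 0.12 and 0.18 TPM, and Calcrl exceeded it by 125-fold. With only 10 and 14 counts for Calcr, the size of this ratio depended on the pseudocount. The log2 ratio was 6.96 with a pseudocount of 0.1 and 4.79 with a pseudocount of 1.

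Which RAMP joins CALCRL sets the ligand preference of the complex: RAMP1 gives a receptor for calcitonin gene-related peptide, and RAMP2 or RAMP3 a receptor for adrenomedullin. Ramp2 made up 75.8 ± 0.685% of the summed TPM of the 3 genes (SD, n = 2), Ramp1 22.3 ± 0.277% and Ramp3 1.88 ± 0.409%. By fold, Ramp2 was 3.39-fold above Ramp1 and 39.9-fold above Ramp3, and Ramp1 was 11.8-fold above Ramp3. In CPM without length correction the log2 ratio of Ramp2 over Ramp1 was 0.52 and that of Ramp3 over Ramp1 -4.22. The order of the RAMP genes was the same in both libraries with intervals apart. The genes of calcitonin gene-related peptide, the ligand of the RAMP1 form, were low: Calca stood at 2.44 and 3.66 TPM and Calcb at 0.82 and 1.37 TPM. These values are of RNA in the heart, and the amount of the peptide was not measured.

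Ramp2 was the 1 gene of the 10 whose leading transcript by TPM was not protein-coding, among the 8 that have 2 or more transcripts. Over 9493 protein-coding genes averaging 1 TPM or more with 2 or more transcripts, 7.06% had a leading transcript of another class in both libraries. Leading transcripts unmatched in GENCODE M21 were not counted as another class. The leading transcript of Ramp2, Ramp2-205, is classed as a retained intron and is 755 nt long. It held 40.1% of the gene's TPM in replicate 1 and 34.3% in replicate 2. Ramp2-204, the leading coding transcript, held 29.8% and 33.4%. The order of these transcripts was not settled in both libraries: their intervals were apart in replicate 1 (57.4 to 73.6 against 45.4 to 54.2 TPM) and overlapped in replicate 2 (46.6 to 61.3 against 48.8 to 57.4 TPM). By estimated counts, which favour longer transcripts, Ramp2-204 led with 42.0% and 46.6% against 34.4% and 29.1% for Ramp2-205.

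Of the bases of Ramp2-205, 633 are shared with exons of Ramp2-204 and 122 lie in the intron before exon 2, while 545 bases of Ramp2-204 are absent from Ramp2-205. The sequences at the start of exon 2 are shown because this is where both transcripts part. They were read 5′ to 3′ from the GENCODE M21 transcripts on the plus strand; Ramp2-205 runs without a break over chr11:101247025-101247084. In both, capitals mark the first 30 bases of exon 2. Lower case marks the last 30 bases of exon 1 in Ramp2-204, and the last 30 bases of the intron in Ramp2-205.
Ramp2-204 junction: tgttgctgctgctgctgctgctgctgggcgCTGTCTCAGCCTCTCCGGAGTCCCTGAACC
Ramp2-205 junction: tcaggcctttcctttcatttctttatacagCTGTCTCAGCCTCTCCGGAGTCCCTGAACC

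Transcripts of class protein_coding held 55.5 ± 3.99% of the TPM of Ramp2 (SD, n = 2). Counted on those alone, Ramp2 stood at 90.0 TPM in replicate 1 and 94.7 TPM in replicate 2, and remained the highest of the 10 genes in both. The gene also overlaps Vps25 on the same strand over 1103 nt, through a readthrough transcript classed for nonsense-mediated decay. Vps25 stood at 89.7 and 83.1 TPM, but the readthrough transcript held only 1.13% and 1.51% of the TPM of Ramp2.

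Calcrl was the other receptor gene with a sizeable noncoding share. The processed transcript Calcrl-203, 500 nt long, held 33.4% of the gene's TPM in replicate 1 and 33.3% in replicate 2, yet only 4.66% and 4.70% of its estimated counts. All 500 of its bases are shared with the coding transcript Calcrl-201. Calcrl-202, the leading coding transcript, held 49.0% and 53.4% of TPM. Coding transcripts together held 66.7 ± 0.0707% (SD, n = 2), and on these alone Calcrl stood at 21.3 and 19.8 TPM. On coding transcripts only, the ratio of Ramp2 to Calcrl was 4.47-fold that of Ramp2 to Ramp1 1.88-fold and that of Ramp2 to Ramp3 25.2-fold, and Calcrl no longer stood above Adm in both libraries (log2 ratio 0.22 in replicate 1 and -0.02 in replicate 2).

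In the remaining genes a coding transcript led in both libraries. The leading transcript of Tie1 held 86.2% and 86.9% of its TPM, and Aplnr-201 held 94.5% and 90.6% of that of Aplnr. For Adm, Adm-201 held 95.9% and 97.2%, although its interval in replicate 2 (4.02 to 20.9 TPM) overlapped that of an unmatched transcript listed at 0 TPM. Angpt1 and Apln each have a single transcript in the tables, and the coding transcript of Angpt2 held all of its TPM.

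**Figure D3:**
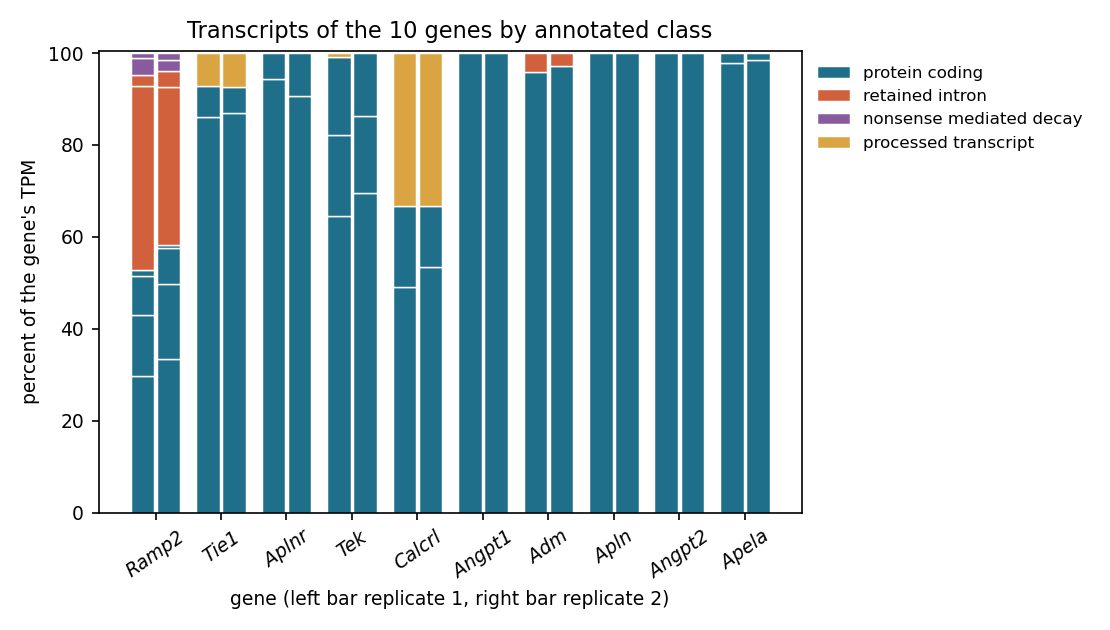
Percent of each gene's TPM on each of its transcripts, replicate 1 in the left bar and replicate 2 in the right, coloured by annotated class with white lines between transcripts. Noncoding classes are a large share only in Ramp2 (coding share 55.5%) and Calcrl (coding share 66.7%); the other 8 genes have coding shares of 92.6% or more.

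The levels of further genes listed for adrenomedullin signalling covered a wide range, with a median of 4.12 TPM. Of 11 genes measured, 7 reached 1 TPM in each library. Pam, the enzyme that amidates adrenomedullin into its active form, stood at 373 TPM in replicate 1 and 345 TPM in replicate 2, and Gnas, the stimulatory G protein subunit that CALCRL uses, at 1210 and 1011 TPM. Ackr3, a receptor that scavenges adrenomedullin, stood at 19.9 and 21.5 TPM, and Crcp, a component named for its part in calcitonin gene-related peptide signalling, at 20.0 and 20.5 TPM. Iapp, the gene of amylin, a related peptide hormone, stood at 0.15 and 0.46 TPM.

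Between the pools, 1 of the 10 genes was more than 1.5-fold apart. This was Angpt1, higher in replicate 2, beside 7.38% of 12987 protein-coding genes averaging 1 TPM or more that were that far apart in either direction. In single directions, 3.87% of those genes were higher in replicate 2, against 1 of the 10, and 3.51% were higher in replicate 1, against none of the 10. Deposited intervals of the libraries were separate for 3 of the 10, Angpt1, Aplnr and Tie1, and for 30.0% of the background, so these shares lie near the background. The log2 ratio of replicate 2 over replicate 1 was negative for 7 genes and positive for 3, with a median of -0.10 beside -0.06 over the background. The median size of the ratio was 0.15 for the 10 genes and 0.14 over the background. Ratios larger in size than that of Angpt1 were found in 6.03% of the background, larger than that of Apela (0.45) in 11.4%, than that of Aplnr (-0.38) in 14.7% and than that of Tie1 (-0.29) in 22.3%.

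Among the 25 further genes of the 3 pathway lists, 20 reached 1 TPM in each library. Of the 22 averaging 1 TPM or more, 4 were more than 1.5-fold apart, beside 7.38% of the background. Higher in replicate 2 were Angpt4 (0.57 and 1.63 TPM) and Calcb (0.82 and 1.37 TPM). The intervals of Calcb overlapped between libraries, at 19 and 35 counts. Higher in replicate 1 were Svep1, an extracellular matrix protein of the vessel wall (2.13 and 1.04 TPM), and Ptprb (4.78 and 3.09 TPM). All 4 were genes under 5 TPM. The ratio of Angpt1 to its receptor gene and that of the receptor gene to Ptprb both differed between pools in the direction that Angpt1 and Ptprb set, since Tek itself moved by a log2 ratio of only -0.10.

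**Figure D4:**
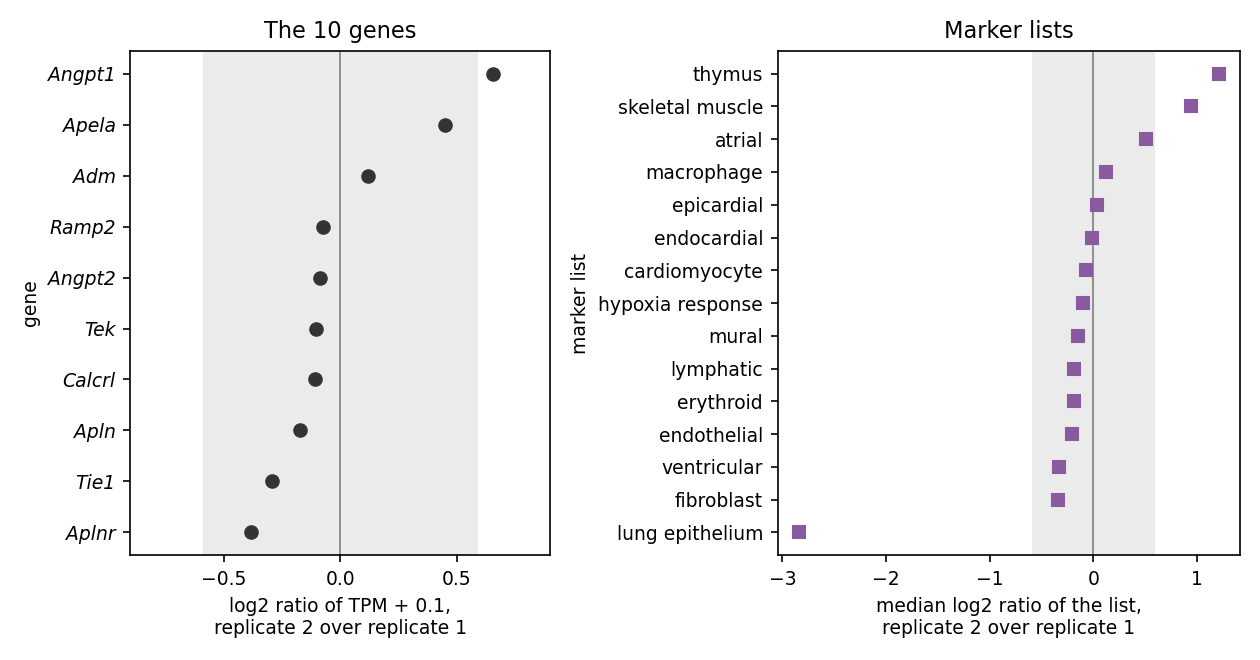
Left, log2 ratio of TPM + 0.1 between the pools (replicate 2 over replicate 1) for each of the 10 genes. Right, the median of the same ratio over each marker list except lung capillary, on a wider axis. Grey marks ratios within 1.5-fold: only Angpt1 lies outside it on the left, and on the right the lists of lung epithelium, thymus and skeletal muscle do.

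The hearts carried RNA of the labelled tissue, and the pools differed in the levels of marker genes of lung epithelium, thymus and skeletal muscle. Whether this RNA came from neighbouring tissues was not tested. All 8 cardiomyocyte markers reached 1 TPM in each library, led by Actc1 at 12648 and 12222 TPM. The 9 lung epithelium markers summed to 990 TPM in replicate 1 and 121 TPM in replicate 2, 8.17-fold higher in replicate 1, with Sftpc alone at 883 and 96.7 TPM; 6 of the 9 reached 1 TPM in each library and none was at 0. The 9 thymus markers summed to 52.2 and 136 TPM and the 8 skeletal muscle markers to 37.1 and 77.9 TPM, both higher in replicate 2 and with none at 0. Atrial markers, in a list added after their values were seen, summed to 8352 and 11478 TPM, and ventricular markers, added likewise, to 16105 and 12606 TPM. The part of these tissues in the levels of Angpt1, Aplnr and Tie1 was not tested.

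Most general endothelial markers were lower in replicate 2, a sign they shared with 61.8% of the background genes. Of 14 endothelial markers averaging 1 TPM or more, 13 were lower in replicate 2, with a median log2 ratio of -0.21, and their highest genes were Egfl7 (181 and 150 TPM), Eng (147 and 135 TPM) and Cd34 (103 and 87.3 TPM). The ratios of Tek, Calcrl, Ramp2, Tie1 and Aplnr were all negative, between -0.38 and -0.07. That sign was not particular to the endothelium: fibroblast markers had a median of -0.34 and ventricular markers, added after their values were seen, of -0.33. Among lists of endothelial subtypes, lung capillary markers had a median of -0.41 (4 of 5 negative), lymphatic markers of -0.18 and endocardial markers of -0.016. The sign of the receptor genes also depended on the scaling. Relative to the median of the endothelial list Ramp2 stood at 0.14, Tek at 0.11 and Calcrl at 0.10, while Tie1 (-0.083) and Aplnr (-0.17) stayed negative. Scaled by edgeR's TMM factors, these genes stayed negative: Ramp2 at -0.016, Tek at -0.043, Calcrl at -0.081, Tie1 at -0.25 and Aplnr at -0.40. The background median was -0.011 on that scaling, beside -0.06 in TPM. On coding transcripts only, Ramp2 was higher in replicate 2 (90.0 and 94.7 TPM). Mural cell markers had a median log2 ratio of -0.15, with 7 of 8 negative. The ratio of Angpt1 was positive. Positive medians were found for thymus (1.21), skeletal muscle (0.94), atrial (0.51, 5 of 6 positive), macrophage (0.12) and epicardial markers (0.04). The part of any of these cell types in the level of Angpt1 was not tested. On the endothelial scaling, Angpt1 remained more than 1.5-fold apart and Apela joined it with a log2 ratio of 0.66, beside 8.08% of the background genes on that scaling.

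The receptor genes were also set against Cdh5, the endothelial cadherin gene. Cdh5 stood at 42.7 TPM in replicate 1 and 38.4 TPM in replicate 2. Tie1 was 1.13-fold above it, Cdh5 was 1.25-fold above Tek and 1.31-fold above Calcrl, and Aplnr could not be ordered against it. On coding transcripts only, Cdh5 was 1.96-fold above Calcrl, and the order of Cdh5 and Tie1 was lost, with a log2 ratio of Cdh5 over Tie1 of -0.14 in replicate 1 and 0.0019 in replicate 2. In replicate 1 Aplnr was slightly the higher, with a log2 ratio of Cdh5 over Aplnr of -0.05, and in replicate 2 Cdh5 was, with 0.18.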

How the data were processed

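For each library 1 gene table and 1 transcript table were used; per the file headers they hold the authors' quantification on mm10 with annotation M4, 1 library per table. RNA longer than 200 nt (10 ng per library, with ERCC spike-ins) was sequenced, per the labels' protocols, which also list a mirVana extraction and a SMARTer Ultra Low kit manual. The deposited estimated counts are not normalized and need not be whole. The deposited TPM, posterior mean TPM and credibility intervals (level not stated) are shares over all rows, spike-ins included. The deposited percent of a gene's TPM per transcript was used for isoforms. How reads were aligned, which program quantified them and whether strand was used is not given in the sources used here. RSEM writes columns of these names. Total estimated counts were 37160624 in replicate 1 and 40360242 in replicate 2, of which spike-ins took 1.62% and 3.41%. Intervals cover counting and assignment error only, as no molecular identifiers were counted.

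Names, classes and coordinates came from GENCODE M21 on GRCm38, the assembly of mm10, matched by identifier without version; of 31 transcripts of the 10 genes, 26 had the same length there and 1 was unmatched. Ratios used log2(TPM + 0.1). A gene was called apart between pools past 1.5-fold, over protein-coding genes averaging 1 TPM or more. No test was run, since an exact sign-flip test over 2 libraries cannot go below p = 0.5. Alternatives used edgeR 4.0.16 (TMM factors) and DESeq2 1.42.0 (size factors) on rounded estimated counts in R 4.3.3; the rest used Python 3.11.15 and pandas 2.3.3. Ratio and call scripts were tested on simulated data. Genes named are the 10, their paired genes, the 3 pathway lists, overlapping genes and up to 3 genes of highest level per marker list. The 10 genes and all lists were chosen with earlier results of these data known, and the atrial and ventricular lists after their values were seen. Of the pathway lists, 1 gene is not reported here and was left out of their counts.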

Additional observations from a re-analysis of the deposited data

How the results depend on the processing

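The count of the 10 genes more than 1.5-fold apart between pools was 1 with edgeR's TMM factors, with DESeq2's size factors, with posterior mean TPM, with a pseudocount of 1 and with no filter on low values, was 2 when scaled to the endothelial list, and was 0 at a 2-fold threshold. Beside these counts, the share of background genes was 6.79%, 7.13%, 6.52%, 4.87%, 12.6% (over 21474 genes), 8.08% and 2.80%, in that order. Without the length correction, by estimated counts, Ramp2 made up 57.6% of the RAMP genes and Angpt1 86.6% of the angiopoietin ligand genes. The log2 ratio of Tek over Aplnr turned to 0.15 in CPM without length correction, and that of Cdh5 over Aplnr ranged from -0.051 to 0.18 with 1 replicate left out at a time. An alternative chosen after seeing the data counted coding transcripts only; intervals do not enter its calls, nor those from CPM, so pairs near 0 pass more easily there. Length correction moved 9 of the 21 pair ratios by more than 1.5-fold, and the values without it stand beside those results, except that of Calcrl over Tek, which went from a log2 ratio of -0.071 to -0.71. Pool differences have no value without either replicate. With posterior mean TPM the coding share of Adm was 79.0%, of Angpt2 90.8% and of Apela 90.2%. For Adm this counts the unmatched transcript, which has no class, as not coding. That transcript held 11.9% and 21.9% on this measure, and the retained intron Adm-202 held 4.86% and 3.42%. Depth limits Apela most, at 58 and 88 counts.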
